A study of Mus musculus with 4 samples.

Results

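The Zfp genes, which encode zinc finger proteins, were examined as a group in RNA that antibodies had pulled down from lysed mouse early erythroid progenitors. Of 343 Zfp genes measured by a probe set with that symbol alone, 208 had a mean log2 level of 6 or more over the 4 arrays and were kept as members, out of 19938 genes in all. The genes were selected on these measured levels, with the brightest probe set standing for each gene. The tristetraprolin genes Zfp36, Zfp36l1 and Zfp36l2 were left out. The cells came from C57BL/6 fetal liver at E14.5, a stage of the embryo counted in days. Cells with CD34, CD41, CD16/32, Sca-1 or markers of mature lineages had been removed, and c-Kit-positive cells with low CD71 had been sorted. Both groups shared this strain, age, tissue and sort. In 2 immunoprecipitates the antibody was control rabbit IgG, and in the other 2 it recognised a protein that binds RNA (RBP). Its name is not in the labels. From knowledge of the published work it is taken to be ZFP36L2, which was not checked here.

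Zinc finger proteins of the Zfp series mostly carry C2H2 fingers, in which a zinc ion held by cysteines and histidines shapes a short module that reads a few bases of DNA. Many also carry a KRAB domain, which binds TRIM28 (KAP1) and through it the histone methyltransferase SETDB1 and heterochromatin proteins, and such proteins silence retrotransposons and imprinted loci. KRAB genes often lie in tandem clusters made by repeated duplication. The RBP family of ZFP36L2 has fingers of another kind, CCCH, which bind AU-rich RNA.

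The pair of members with the closest promoters is printed first. Only promoters were compared, and whether the array separates the transcripts of this pair was not tested. Sequences are RefSeq's (GRCm38.p6), whose promoter table holds 167 of the 208 members. Zfp942 (chr17:21962490-21962714, minus strand) and Zfp944 (chr17:22361401-22361625, minus strand) shared 274 of 275 aligned promoter bases (99.6%). A run of 225 of these bases is shown. The capital marks the differing base, A68G, counted from 1 at the 5′ end of the run and written with the base of Zfp942 first.
Zfp942: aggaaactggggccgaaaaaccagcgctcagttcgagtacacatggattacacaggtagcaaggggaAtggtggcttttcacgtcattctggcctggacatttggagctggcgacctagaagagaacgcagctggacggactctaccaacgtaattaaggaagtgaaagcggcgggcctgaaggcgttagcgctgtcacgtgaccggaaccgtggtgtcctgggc
Zfp944: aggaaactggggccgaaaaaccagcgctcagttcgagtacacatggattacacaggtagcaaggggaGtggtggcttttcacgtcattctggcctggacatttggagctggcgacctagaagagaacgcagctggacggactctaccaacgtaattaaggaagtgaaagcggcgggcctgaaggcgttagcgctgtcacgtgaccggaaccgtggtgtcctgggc
Zfp942 gave log2 levels of 6.34 and 6.14 with control IgG against 6.93 and 7.71 with the RBP antibody. Zfp944 gave 6.46 and 5.94 with control IgG against 6.64 and 7.16 with the RBP antibody. In both genes the RBP arrays lay above the IgG arrays without overlap, and RBP array 2 was the highest. Zfp942 passed limma's test, with a difference of 1.08 ± 0.28 (SE; adjusted p = 0.0346), and lost its call with quantile normalization, with the level trend removed and without IgG array 1, IgG array 2 or RBP array 2. Zfp944 did not pass, with 0.70 ± 0.26 (limma, adjusted p = 0.0904). The difference between these 2 values was not tested.

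A set of 3 motifs, chosen after the promoters had been looked at, were searched on both strands in windows from 250 bases before to 50 bases after each start. The letters ACTACAATT, from the element bound by ZFP143, a transcription factor of many housekeeping promoters, stood in 7 of 206 member promoters (3.4%) and in 129 of 32851 promoters of the table (0.393%). The ETS element CCGGAAG stood in 16.5% of member promoters against 8.86% of all, and TATAAA in 6.8% against 13.6%. The median GC content was 57.5% in member promoters and 52.7% in all. No motif of the 3 is contained in another, and a match is a description and not a binding site. 3 windows with the first motif (capitals; read on the opposite strand in Zfp108) are shown for Zfp933 (chr4:147848422-147848470, minus strand), Zfp108 (chr7:24254709-24254757, plus strand) and Zfp692 (chr11:58307001-58307049, plus strand).
Zfp933: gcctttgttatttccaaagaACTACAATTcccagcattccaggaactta
Zfp108: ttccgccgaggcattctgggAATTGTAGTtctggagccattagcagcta
Zfp692: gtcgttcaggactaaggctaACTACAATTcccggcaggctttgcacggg
The 7 genes with this motif (Zfp1, Zfp108, Zfp111, Zfp128, Zfp180, Zfp692 and Zfp933) had a median RBP minus IgG difference of 0.38, and 2 of them were called higher. Among the 160 members with a promoter and without the motif, the median was 0.69 and 47.5% were called higher. Zfp692 went the other way from most members, with 8.73 and 9.46 with control IgG against 8.37 and 8.28 with the RBP antibody, and its difference of -0.77 did not pass (limma, adjusted p = 0.0705).

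Levels are the authors' log2 values, and each difference is the mean of the RBP arrays minus that of the IgG arrays. Over all 35556 probe sets the array median was 5.85 and 5.93 for IgG and 5.57 and 5.62 for RBP. A background level of 5.36 was taken as the 95th percentile of 1246 chemosensory receptor genes, and in 0 of the 208 members did a group mean lie under it. All 8 erythroid progenitor markers (Kit, Gata1, Gata2, Epor, Tal1, Klf1, Myb and Tfrc) lay above background, and their levels summed to 77.6 and 78.8 with control IgG against 82.2 and 83.3 with the RBP antibody. Limma called 4 of the 8 higher, and their median difference was 0.59. Of other genes at levels of 9 and above, where these markers lay, 54.2% were higher, with a median of 0.68. Genes of cells that the sort should have removed were also above background (Cd34, Fcgr3 and Itga2b, mean levels 6.35 to 9.39), as were 2 of 4 hepatocyte, 3 of 5 macrophage, 1 of 2 megakaryocyte and 3 of 3 lymphoid markers. Summed hepatocyte levels ran from 21.7 to 25.8 on the IgG arrays and from 22.4 to 25.1 on the RBP arrays, and summed macrophage levels from 31.6 to 33.7 and from 30.9 to 33.8. Summed lymphoid levels ran from 18.3 to 20.5 and from 18.0 to 20.2, and megakaryocyte levels from 11.4 to 11.6 and from 11.6 to 12.2. In the hepatocyte, macrophage and lymphoid sums and in that of the genes sorted away, array 1 was the higher one of either group. Single markers moved within these sums: Cd68 was lower (-1.59; limma, adjusted p = 0.00568) and Gp9 higher (0.82; limma, adjusted p = 0.0141), while Csf1r differed by 1.12 and did not pass. The part of these cells in the results was not tested. Fewer cells of a type, less RNA per cell and less RNA pulled down by an antibody cannot be told apart in such samples. The labels do not say that each array had a cell preparation of its own, so p-values measure only how far these arrays differ, and that may be technical spread. An exact two-sided permutation test of 2 arrays against 2 cannot give a p below 0.333, so every call rests on limma's fit over all 19938 genes.

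RBP and IgG immunoprecipitates are compared to ask what RNA the RBP antibody pulled down beyond the control antibody. Of the 208 Zfp members, 98 (47.1%) were higher on the RBP arrays, 3 (1.44%) were lower and 107 did not pass (limma, adjusted p under 0.05). Over all genes 23.8% were higher and 6.54% lower, but among genes with a mean level of 6 or more these shares were 44.4% and 5.3%. The members' share of higher genes was thus near that of other genes at such levels. Their median difference was 0.69, with an interquartile range from 0.32 to 1.06, against 0.58 for all genes with a level of 6 or more and -0.02 for all genes. At least 2-fold higher without overlap were 64 members and 0 were so lower, where 13.5% and 1.23% of all genes met these rules. The 64 are 30.8% of the members, against 25.5% of genes with a level of 6 or more. Both RBP arrays lay above both IgG arrays in 159 members and below them in 17, and the groups overlapped in 32. These are 76.4% and 8.17% of the members, against 37.4% and 36.2% of all genes and 65.1% and 14.6% of genes with a level of 6 or more. Without RBP array 1 the number of higher members was 51, and without RBP array 2 it was 45, with 0 lower in either case, when 16.5% and 19.5% of genes with a level of 6 or more were higher. In limma without variance moderation 0 members passed (78 higher and 6 lower at an unadjusted p under 0.05), and of all genes 2 passed as higher and 1 as lower. The number was also 51 with quantile normalization and 153 with each array centred on the chemosensory genes. With that centring the median of all genes was 0.29 in place of -0.02. With the trend of the difference on level removed 29 members were higher and 13 lower. Of genes with a level of 6 or more, 18.5%, 63% and 9% were higher in these 3 settings, in this order. The members' shares were 24.5%, 73.6% and 13.9%.

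**Figure D1:**
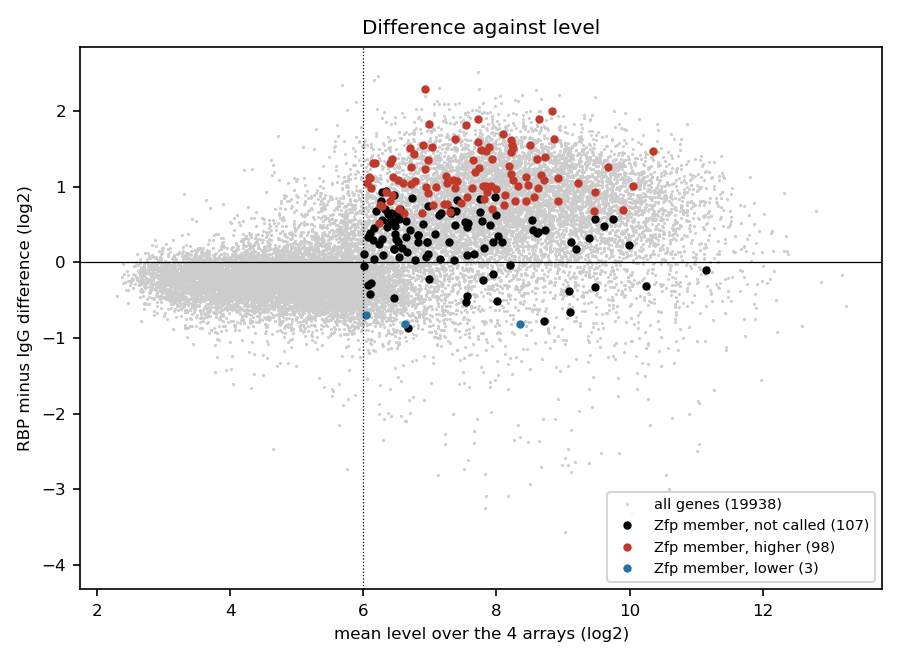
Each grey point is 1 of 19938 genes, at its mean log2 level over the 4 arrays (x axis) and its RBP minus IgG log2 difference (y axis). The 208 Zfp members are drawn by their call in limma, with the dotted line at the level of 6 that chose them, and 186 of them lie above 0.

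Since the mean level includes the RBP arrays, 28 members reached it with an IgG mean under 6, and 5 with an RBP mean under 6. Of the 175 members whose group means were both 6 or more, 80 (45.7%) were higher, against 45.3% of all genes with both means there. Just inside the level of 6 stood Zfp467 and Zfp13. Zfp467 gave 6.18 and 5.73 with control IgG against 6.17 and 5.96 with the RBP antibody, and Zfp13 gave 5.80 and 6.27 against 5.96 and 6.01. Just outside were Zfp939, with 6.11 and 6.13 against 5.69 and 6.06, and Zfp619, with 5.65 and 5.61 against 6.30 and 6.27. Of these 4 genes at the edge, Zfp619 had RBP arrays clearly above the IgG arrays, and in Zfp467 and Zfp13 the groups overlapped. The differences of Zfp13 and Zfp939 turned positive with quantile normalization or chemosensory centring, that of Zfp13 also with the trend removed.

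The share of higher members changed with level. At levels of 6 to 7, 32 of 91 members (35.2%) were higher, against 23% of other genes, and the median difference was 0.57 against 0.13. This class held the 28 members with an IgG mean under 6, of which 18 were higher. They reached the level through their RBP arrays. With both group means at 6 or more, 45.7% of members and 45.3% of all genes were higher. At 7 to 8, 32 of 60 (53.3%) were higher against 46.9%, and at 8 to 9, 27 of 38 (71.1%) against 56.2%. The order turned at levels of 9 and above, where 7 of 19 members (36.8%) were higher against 54.2% of other genes, with medians of 0.49 and 0.68. These shares are descriptions, since the members were chosen by level and the difference between members and other genes was not tested.

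**Figure D2:**
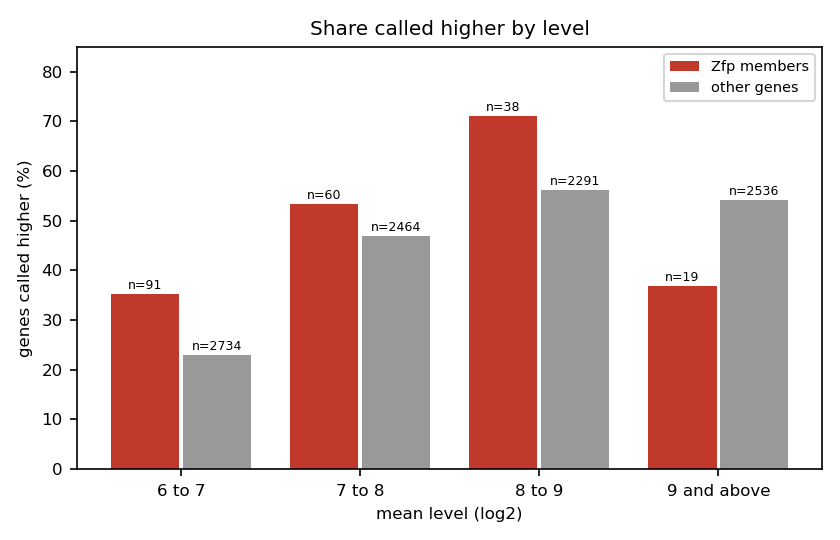
Bars give the percentage of genes called higher on the RBP arrays (y axis, from 0) in 4 classes of mean log2 level (x axis), for Zfp members and for all other genes, with the number of genes above each bar. The members' bar is the taller one in the 3 lower classes and the shorter one at 9 and above.

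The members with the largest positive differences were led by Zfp322a, a factor known from the pluripotency network of mouse embryonic stem cells. It gave 5.82 and 5.72 with control IgG against 8.01 and 8.12 with the RBP antibody. Its IgG mean was 5.77, so it reached the level of 6 through its RBP arrays. Both RBP arrays were far above both IgG arrays, and the difference was 2.30 ± 0.15 (SE), or 4.91-fold (limma, adjusted p = 0.00558). Zfp146, also called OZF, consists of little more than its zinc fingers. It gave 7.62 and 8.04 against 9.75 and 9.92, a 4.02-fold difference. Zfp507 gave 7.59 and 7.78 against 9.56 and 9.62, a 3.74-fold difference. Zfp318, a nuclear protein that B cells need to make IgD from a long transcript, gave 7.08 and 6.49 against 8.66 and 8.69. In Zfp318 the RBP arrays lay close together and the spread was among the IgG arrays. Zfp568, a KRAB protein that silences a placental transcript of Igf2, gave 7.11 and 7.40 against 8.9997 and 8.9024, a difference of 1.70 ± 0.17 (SE; limma, adjusted p = 0.00558). Zfp518a gave 6.60 and 6.68 against 8.17 and 8.75. Zfp251 gave 7.24 and 7.57 against 9.03 and 9.03. In each of these members the lower RBP array exceeded the higher IgG array by more than 1 log2 unit.

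Zfp81, Zfp869 and Zfp664 completed the 10 largest differences. Zfp81 gave 6.45 and 5.70 with control IgG against 7.58 and 8.23 with the RBP antibody, a difference of 1.83 ± 0.32 (SE; limma, adjusted p = 0.0120). Zfp869 gave 6.25 and 6.87 against 8.11 and 8.27. Zfp664 gave 7.79 and 8.31 against 9.59 and 9.78, a difference of 1.63 ± 0.21. The groups did not overlap in any of the 3. The second probe set of Zfp664 gave 7.13 and 6.92 against 7.33 and 7.03, a difference of 0.15 that did not pass (limma, adjusted p = 0.522), so the probe sets of this gene disagreed. Zfp81 and Zfp664 lost their calls with the level trend removed, and the other 8 of these 10 kept theirs in quantile normalization, chemosensory centring, trend removal and without any single array.

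**Figure D3:**
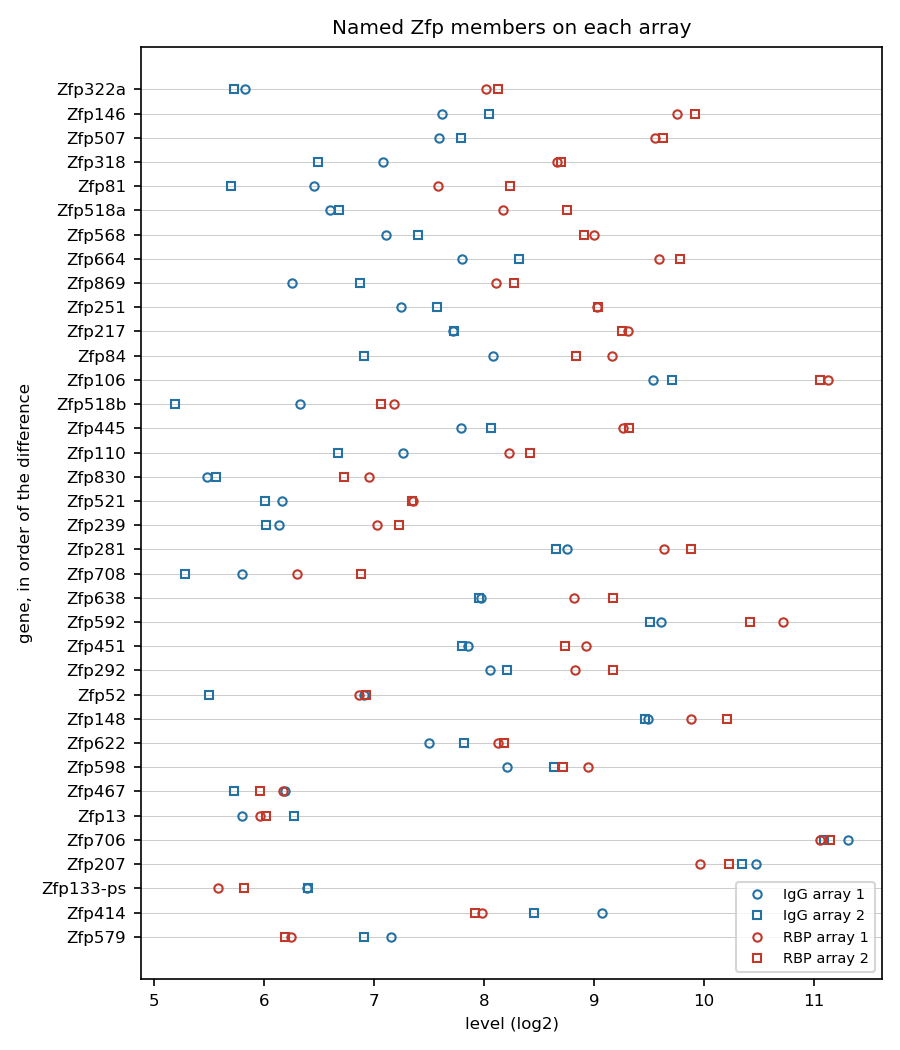
Each row is 1 named Zfp member, in order of its difference, and each symbol its log2 level on 1 array (x axis; blue for IgG, red for RBP, circles for array 1, squares for array 2). In the upper rows both red symbols lie to the right of both blue ones, and in Zfp133-ps, Zfp414 and Zfp579 they lie to the left.

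Negative differences were found in 22 members, and 3 of them passed limma's test as lower. Zfp579 gave 7.16 and 6.90 with control IgG against 6.24 and 6.19 with the RBP antibody, a difference of -0.82 ± 0.16 (SE; limma, adjusted p = 0.0155). Zfp414 gave 9.07 and 8.45 against 7.98 and 7.91 (limma, adjusted p = 0.0445). Zfp133-ps, by its symbol a pseudogene, gave 6.39 and 6.40 against 5.58 and 5.81 (limma, adjusted p = 0.0233). The groups did not overlap in these 3, but each call was lost without RBP array 1 and without RBP array 2. Zfp414 and Zfp133-ps also lost theirs after chemosensory centring, and Zfp133-ps with quantile normalization and with the level trend removed. The most negative difference of all members, that of Zfp580 at -0.86, did not pass (limma, adjusted p = 0.0615), with IgG arrays at 7.47 and 6.74 and RBP arrays at 6.40 and 6.09.

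Among 10 members with roles in RNA or ribosome biology 5 (50%) were higher and 0 lower, and the median difference was 0.74. Among all genes with a level of 6 or more 44.4% were higher, with a median of 0.58. Zfp106, which binds GGGGCC repeat RNA and maintains motor neurons, gave 9.53 and 9.71 with control IgG against 11.12 and 11.05 with the RBP antibody, a 2.77-fold difference (limma, adjusted p = 0.00558). Zfp830, a protein linked to pre-mRNA splicing, gave 5.48 and 5.56 against 6.96 and 6.72, so it reached the level of 6 through its RBP arrays. Zfp239 (MOK2), which binds both DNA and RNA, gave 6.13 and 6.02 against 7.03 and 7.23. In all 3 the groups stood well apart. Zfp638 (NP220), which silences unintegrated retroviral DNA, gave 7.97 and 7.95 against 8.81 and 9.17, and the double-stranded RNA binder Zfp346 gave 7.98 and 8.10 against 8.82 and 8.88. Both passed in limma (adjusted p = 0.0107 and 0.0124). Zfp638 lost its call with quantile normalization, with the level trend removed and without RBP array 2, and Zfp239 without RBP array 2. Zfp346 lost its call with quantile normalization, with the trend removed, where its difference was 0.09, and without RBP array 1 or RBP array 2.

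The other 5 of this list did not pass. Zfp598, the ubiquitin ligase that marks collided ribosomes, gave 8.21 and 8.63 against 8.95 and 8.71, a difference of 0.41 ± 0.20 (SE; limma, adjusted p = 0.168). Its sign turned with quantile normalization and with the level trend removed, and it passed as higher after chemosensory centring and without IgG array 2. Zfp622, a maturation factor of the large ribosomal subunit, gave 7.49 and 7.81 against 8.13 and 8.17, a difference of 0.50 ± 0.17 (SE; limma, adjusted p = 0.0734). It turned negative with the level trend removed and passed as higher after chemosensory centring and without IgG array 2. Zfp326, of a complex that couples transcript elongation with splicing, differed by 0.67. Zfp385a and Zfp207 had the only negative values of the list. Zfp385a, an RNA-binding p53 target, gave 9.25 and 9.31 against 8.90 and 8.91, and Zfp207 (BuGZ), a spindle assembly protein that binds BUB3, gave 10.47 and 10.34 against 9.97 and 10.23. Neither overlapped between groups, and both passed as lower once the level trend was removed. Zfp207 stood at 0.0066 after chemosensory centring.

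Among 12 members that work in chromatin complexes 8 (66.7%) were higher and 0 lower, with a median of 0.88, against 44.4% and 0.58 for genes with a level of 6 or more and 56.2% and 0.77 for other genes at levels of 8 to 9. The median level of the 12 members was 8.42, and in all 12 both RBP arrays were above both IgG arrays. The same held in 65.1% of genes with a level of 6 or more. It held in 1771 of 2291 other genes at levels of 8 to 9. Zfp217, of the CoREST and LSD1 complex, gave 7.72 and 7.73 with control IgG against 9.30 and 9.25 with the RBP antibody, a difference of 1.55 ± 0.14 (SE; limma, adjusted p = 0.00558). Its replicate arrays lay close together, and the gap between groups was many times their spread. Zfp518b, a partner of the methyltransferase G9a, gave 6.32 and 5.18 against 7.18 and 7.06 (limma, adjusted p = 0.0387). Zfp592, of a complex with ZMYND8, gave 9.60 and 9.51 against 10.71 and 10.41, and the SUMO ligase Zfp451 gave 7.86 and 7.80 against 8.93 and 8.74. The IgG arrays of Zfp518b were more than 1 log2 unit apart. Their mean was 5.75, so Zfp518b reached the level of 6 through its RBP arrays. Zfp217 kept its call with quantile normalization, with the level trend removed and without any single array. Zfp518b, Zfp592 and Zfp451 lost theirs with quantile normalization, with the trend removed and without RBP array 1, and Zfp518b also without RBP array 2.

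Of 7 members known from blood cells or pluripotency 4 (57.1%) were higher and 0 lower, with a median of 0.87. Over the 10 measured genes of this list, including those under the level of 6, 4 were higher and the median was 0.57. The median level of the 7 members was 8.56, and of other genes at levels of 8 to 9, 56.2% were higher. Besides Zfp318, the higher members were Zfp521, Zfp281 and Zfp292. Zfp521, a cofactor of immature blood cells that restrains lineage factors, gave 6.16 and 6.00 with control IgG against 7.35 and 7.34 with the RBP antibody, a 2.40-fold difference (limma, adjusted p = 0.00568). Zfp281, a partner of NANOG, gave 8.75 and 8.66 against 9.63 and 9.88, and Zfp292 gave 8.05 and 8.20 against 8.83 and 9.17. Zfp148 (ZBP-89), which works with GATA1 in erythroid cells, gave 9.49 and 9.46 against 9.88 and 10.21. In Zfp148 the groups did not overlap, and its difference of 0.57 ± 0.17 (SE) missed the threshold (limma, adjusted p = 0.0537). It turned negative with the level trend removed and passed as higher after chemosensory centring and among genes above background only. Zfp281 and Zfp292 lost their calls with quantile normalization, with the trend removed and without RBP array 2, and Zfp292 also without RBP array 1. Zfp521 kept its call in each of these settings.

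Of 6 KRAB members with known silencing or developmental roles 5 (83.3%) were higher and 0 lower, with a median of 1.20, against 44.4% and 0.58 for all genes with a level of 6 or more. Besides Zfp568 they were Zfp445, Zfp110, Zfp708 and Zfp809. Zfp445, which maintains imprints, gave 7.79 and 8.06 with control IgG against 9.26 and 9.32 with the RBP antibody, a 2.57-fold difference (limma, adjusted p = 0.00570). Zfp110 (NRIF), which binds the p75 neurotrophin receptor, gave 7.26 and 6.67 against 8.23 and 8.42. Zfp708, a silencer of a mouse endogenous retrovirus, gave 5.79 and 5.28 against 6.29 and 6.87, so it reached the level of 6 through its RBP arrays. Of these, Zfp708 had the RBP and IgG arrays closest to each other. Zfp809, which recognises the tRNA primer site of retroviruses, gave 7.20 and 7.47 against 8.05 and 8.63 (limma, adjusted p = 0.0263). The remaining member, Zfp90, gave 6.50 and 6.47 against 6.65 and 6.69 and did not pass. With the trend removed Zfp445, Zfp110, Zfp708 and Zfp809 lost their calls and Zfp568 kept its own. Zfp110, Zfp708 and Zfp809 also lost theirs without RBP array 2, Zfp110 and Zfp809 with quantile normalization, Zfp708 without IgG array 2 and Zfp809 without IgG array 1. Under the level of 6 lay Zfp57, Zfp819, Zfp42, Zfp105, Zfp423 and Zfp532 of these 4 lists, and none of them passed in limma. In this order they differed by -0.20, 0.20, -0.54, 0.37, -0.49 and -0.37. With them counted, the list medians were 1.03 for KRAB silencing, 0.57 for blood and pluripotency and 0.84 for chromatin.

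The corepressors that such proteins recruit were measured beside them. Of 29 corepressor genes measured, which are not members, 23 (79.3%) were higher and 0 lower, with a median of 0.95. Their median level was 9.54, and of other genes at levels of 9 and above 54.2% were higher, with a median of 0.68. Trim28, the corepressor bound by KRAB domains, gave 10.12 and 10.56 with control IgG against 11.38 and 11.24 with the RBP antibody, a difference of 0.97 ± 0.20 (SE; limma, adjusted p = 0.0170). Setdb1 gave 8.29 and 8.81 against 9.70 and 9.89, a difference of 1.25 ± 0.22. In both the groups stood apart. The largest differences were those of Chd4, the remodeller of the NuRD complex (1.56 ± 0.17), the DNA methyltransferase Dnmt3a (1.41 ± 0.21), Morc3 (1.35 ± 0.16) and Atrx (1.34 ± 0.19). Trim28 lost its call with quantile normalization, with the level trend removed and without RBP array 1 or RBP array 2. Setdb1 lost its call in the same settings except without RBP array 1. Dnmt3a, Morc3 and Atrx lost their calls with the level trend removed, and Atrx also with quantile normalization, while Chd4 kept its call in both settings. Of the 29 genes, 6 were higher with quantile normalization and 2 with the level trend removed. In these settings 18.5% and 9% of genes with a level of 6 or more were higher.

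**Figure D4:**
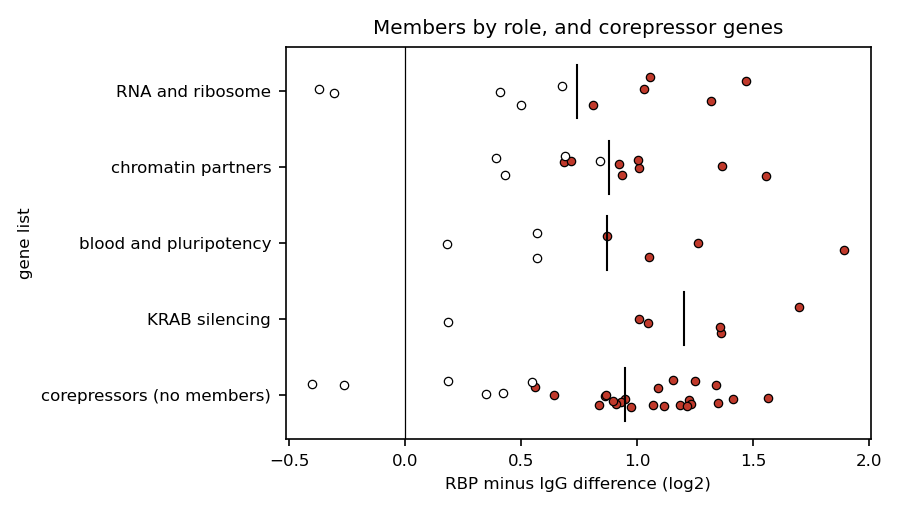
Points are genes of 4 role lists of Zfp members and of the corepressor list, at their RBP minus IgG log2 difference (x axis); red points passed limma as higher, white ones did not pass, and the vertical bars are medians. The medians run from 0.74 to 1.20, and vertical scatter within a list carries no value.

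By the mean of the deposited levels, Zfp706, Zfp106, Zfp207 and Zfp592 led the members. Zfp706 gave 11.31 and 11.09 with control IgG against 11.05 and 11.15 with the RBP antibody, so its groups overlapped. Its second probe set gave 9.59 and 9.41 against 10.21 and 10.65, a difference of 0.93 (limma, adjusted p = 0.0213), while the first gave -0.10, which turned positive after chemosensory centring, with the mean over probe sets and without IgG array 1. For Zfp706 the answer therefore depended on the probe set. Replicate arrays differed most in Zfp52 and Zfp84. Zfp52 gave 6.90 and 5.50 with control IgG against 6.86 and 6.92 with the RBP antibody, and its sign turned without IgG array 2 while it passed as higher without IgG array 1. Zfp84 gave 8.07 and 6.90 against 9.16 and 8.84, with 1.51 ± 0.38 as the difference and its SE (limma, adjusted p = 0.0336). The call of Zfp84 was lost without either RBP array, with quantile normalization and with the level trend removed. The 2 probe sets of Zfp788 held identical values.

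Zfp genes were also read by their position, since tandem copies neighbour each other. In RefSeq's order of protein-coding genes 101 members lay next to another Zfp gene and 106 did not. The remaining member, Zfp133-ps, was not placed as protein-coding and was called lower. Of the 101 neighbours 47 (46.5%) were higher and 0 lower, with a median of 0.70. Of the 106 others 51 (48.1%) were higher and 2 lower, with a median of 0.69. The neighbours had a lower median level, 6.82 against 7.72, and with the level trend removed the medians were 0.40 and 0.17. These differences between the sets were not tested. RBP array 2 was above RBP array 1 in 71 of the 101 neighbours and in 51 of the 106 others, where 46.5% of all genes with a level of 6 or more had that order. IgG array 1 was above IgG array 2 in 67 of the 101 and in 54 of the 106, against 54.7% of such genes. These counts are descriptions, as neighbours can share sequence and probes.

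The 4 runs with the most members differed in their calls and in their median levels. Those levels were 6.70, 6.54, 6.73 and 8.20, in the order below. Of other genes, 23% were higher at levels of 6 to 7 and 56.2% at 8 to 9. The difference between runs was not tested. In the run of 15 genes from Zfp84 to Zfp146, 5 of 10 members were higher, from Zfp14 at -0.42 to Zfp146 at 2.01, with a median of 0.77. In the run of 20 genes from Zfp455 to Zfp273, 0 of 9 members passed in limma (3 at an unadjusted p under 0.05, all higher), from Zfp457 at 0.03 to Zfp729b at 0.94, with a median of 0.46. Zfp729b gave 5.66 and 5.96 with control IgG against 6.28 and 7.21 with the RBP antibody, so its RBP arrays differed by most of a log2 unit. In the run from Zfp180 to Zfp94, 4 of 6 members were higher, with Zfp109 at 1.52 the highest and Zfp108 at 0.38 the lowest. In the run from Zfp786 to Zfp746, 4 of 5 were higher. Its exception Zfp398 gave 8.10 and 8.33 against 8.13 and 8.24, and its highest, Zfp777, gave 7.49 and 7.50 against 8.998 and 8.911. Neighbours in a run could thus lie far apart in their difference.

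**Figure D5:**
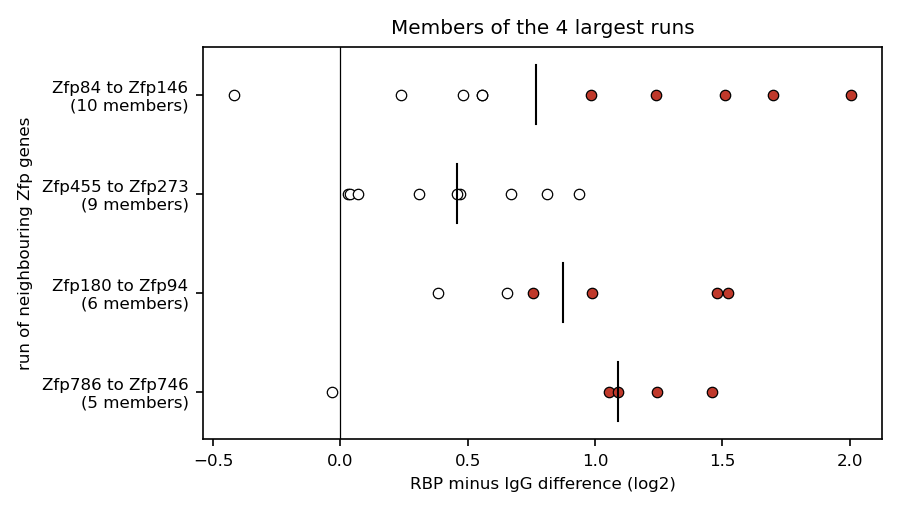
Each row is a run of neighbouring Zfp genes named by its first and last gene, and each point a member at its RBP minus IgG log2 difference (x axis); red points passed limma as higher, white ones did not, and the vertical bars are medians. In the run from Zfp455 to Zfp273 all 9 points are white and lie between 0.03 and 0.94.

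Over the 208 members, which are no independent replicates, the levels of an array pair had a Pearson's r of 0.940 for the IgG arrays, 0.956 for the RBP arrays and from 0.820 to 0.851 across the groups. A set of 24 members (11.5%) was higher in limma both with all arrays and in each of 10 other settings (all alternatives but the replicate block, the 2-fold rule and the fit with no moderation), against 3.94% of all genes and 7.49% of genes with a level of 6 or more. With no moderation 0 members passed. Of the 24, 5 had an IgG mean under 6 (Zfp322a, Zfp623, Zfp60, Zfp954 and Zfp830) and reached the level through their RBP arrays. Besides Zfp322a, Zfp146, Zfp507, Zfp318, Zfp518a, Zfp568, Zfp869, Zfp251, Zfp217, Zfp106, Zfp830, Zfp521, Zfp109, Zfp180 and Zfp777, it held Zfp740, Zfp113, Zfp623, Zfp553, Zfp866, Zfp60, Zfp954, Zfp652 and Zfp74. Zfp942, Zfp346 and Zfp809 were not in this set, and 0 of the 3 lower members were.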

How the data were processed

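RNA from 4 immunoprecipitates was measured on Affymetrix whole-transcript arrays, with 2 arrays in each group, as the sample titles give them. The values deposited by the authors are log2 levels per probe set, made with RMA and affy, per the submitters' processing notes. No version or filter is given in the sources used here. RMA sums probes into a level, and the 4 columns keep different medians and spreads, so scaling can move a difference. Of 35556 probe sets, 21789 carried 1 gene symbol in the platform annotation, 1621 several (left out; 40 hold a Zfp symbol) and 12146 none. Several symbols of the gene lists (Zfp143, Zfp91, Zfp259, Zfp932, Zfp69, Fam208a and Mphosph8) are not analysed here. The brightest probe set stood for each of 19938 genes, and symbols and gene order came from RefSeq (GRCm38.p6), where all 208 members matched by Entrez identifier.

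The tests used limma 3.58.1 in R 4.3.3 (lmFit and eBayes, residual df 2, prior df 3.76), two-sided, with Benjamini-Hochberg adjustment over all genes and a threshold of 0.05. The test was tried on simulated data. Named were the 10 called members with the largest positive and up to 6 with the largest negative difference, up to 4 called from each list, the 4 of highest level, the genes beside the level of 6, the 2 with the widest replicates and a few fixed genes; other genes were singled out after their values were seen. The members, lists and tests were chosen with earlier results of these data known. The alternatives were quantile normalization, centring on chemosensory receptor genes, a loess trend (span 0.3) removed, a filter on dim genes, the mean over probe sets, a replicate block, other variance moderation, a 2-fold rule and leaving out each array. Protein features are not analysed here. The number of arrays limits the precision; the median standard error of a member's difference was 0.18.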

Additional observations from a re-analysis of the deposited data

How the results depend on the processing

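Of the members, 98 were higher and 3 lower in limma. With quantile normalization the numbers were 51 and 7, with chemosensory centring 153 and 1, with the level trend removed 29 and 13, and with no variance moderation 0 and 0 (over all genes 2 and 1). The 2-fold rule gave 64 and 0. Of genes with a level of 6 or more, 44.4% were higher in the main fit and 18.5% with quantile normalization. The share was 63% with chemosensory centring, 9% with the trend removed and 25.5% by the 2-fold rule. Over all 19938 genes, 553 were lower with quantile normalization, 317 with chemosensory centring and 1014 with the trend removed. Leaving out 1 array gave 45 to 108 higher and 0 to 6 lower. With the replicate number as a replicate block 136 members (65.4%) were higher and 7 lower. In that fit 54.4% of genes with a level of 6 or more were higher. The labels do not say that the numbers pair the arrays, whose deviations correlated at r = 0.26 over 19938 genes. Zfp148, Zfp622 and Zfp52 passed as higher with the replicate block. The median difference of 0.69 became 1.01 with chemosensory centring and 0.27 with the trend removed. The 23 higher corepressor genes became 6 with quantile normalization, 2 with the trend removed, 0 with no moderation, 13 by the 2-fold rule and 8 to 23 without 1 array. In 0 of the 13 settings was a called member called in the opposite direction. The cause of these changes was not tested.

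Signs turned in 9 of the named genes, and none of these had passed. With chemosensory centring Zfp706 moved to 0.21, Zfp207 to 0.0066, Zfp13 to 0.27 and Zfp939 to 0.072. With quantile normalization Zfp13 moved to 0.20, Zfp939 to 0.0073 and Zfp598 to -0.12. With the trend removed Zfp13 moved to 0.015, Zfp148 to -0.042, Zfp598 to -0.31 and Zfp622 to -0.17. The mean over probe sets gave 0.41 for Zfp706. Without 1 array the ranges -0.21 to 0.011 for Zfp706, -0.12 to 0.34 for Zfp467, -0.28 to 0.19 for Zfp13 and -0.01 to 1.39 for Zfp52.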

Other observations

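The 135 Zfp genes under the level of 6 had a median difference of 0.22 on the log2 scale, and limma called 25 of them (18.5%) higher and 3 lower. Of all 9705 genes under that level 2.04% were higher and 7.85% lower; the difference between these shares was not tested. Their IgG mean lay under the background level of 5.36 in 91 and their RBP mean in 70, so the sizes of these differences are uncertain.

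With the level trend removed, limma called 13 members (6.25%) lower, against 5.09% of all genes and 9.23% of genes with a level of 6 or more, so the share was not above that of such genes. Besides Zfp579, Zfp414, Zfp207 and Zfp385a these were Zfp398, Zfp524, Zfp764, Zfp703, Zfp385c, Zfp655, Zfp169, Zfp395 and Zfp692. Zfp703, a corepressor known from breast epithelium, gave 7.73 and 7.82 with control IgG against 7.41 and 7.26 with the RBP antibody. Zfp655 gave 8.10 and 8.43 against 7.61 and 7.90. In both the RBP arrays lay below the IgG arrays, and neither passed with the trend left in (limma, adjusted p = 0.0738 and 0.0922). The TATAAA motif was present in 13 members with a promoter, of which 10 were called higher in limma with a median of 1.01. Without it 68 of 154 were higher, with a median of 0.65. The ETS element was present in 33, of which 13 (39.4%) were higher with a median of 0.55. Without that element 48.5% were higher, with a median of 0.69. Of all genes with a level of 6 or more 44.4% were higher. The motifs were chosen after the promoters had been seen, and these differences were not tested.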
